A study of Mus musculus with 21 samples.

Results

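Male germ cells lacking Tex15 were compared with heterozygous germ cells shortly before birth, at embryonic day 18.5 (E18.5). The comparison was fixed by the sample labels and holds 6 of the 21 RNA-seq libraries of the series: 3 labelled Tex15HT (heterozygous, HT) and 3 labelled Tex15KO (knockout, KO). Embryos came from matings of Tex15 heterozygotes on a strain background given as mixed, so HT cells keep 1 working allele, and no wild type library of this age was analysed. In both groups the cells were male, carried an Oct4-GFP reporter and were sorted for green fluorescence. The labels do not say which promoter fragment drives the reporter or which part of Tex15 is missing. Each group is described as biological triplicates. The labels do not say whether a library is 1 embryo or several, so p-values measure the spread between these libraries. The question put to the libraries was which of 24495 genes, 1217 repeat names (single types of repeated element) and 53 repeat families differ when Tex15 is absent.

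By E18.5 male germ cells have become prospermatogonia, which have stopped dividing and are laying down new DNA methylation over a genome erased earlier in development. In this window small RNAs bound by PIWI proteins (piRNAs) guide methylation and repressive chromatin to transposable elements, above all to long interspersed elements (L1) and to endogenous retroviruses framed by long terminal repeats. TEX15 is a large germ cell protein that has been placed in the nuclear arm of this pathway, next to the PIWI protein encoded by Piwil4, and it also has a known role in meiotic recombination.

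Levels are given as CPM, the usual per-library scale, taken here over gene counts alone after TMM scaling, and differences as log2 fold changes (KO minus HT) with their standard error (SE). All adjusted p-values are from the quasi-likelihood test of edgeR with Benjamini-Hochberg adjustment over all rows of a table, and a row passed at a threshold of 0.05. Gene totals ran from 7877665 to 11168905 counts, 3 counts corresponded to 0.273 to 0.377 CPM, and repeat names took 49.9% to 60.2% of the counts. On the first principal component of the genes (37.2% of the variance) the HT libraries lay between -36.1 and -20.1 and the KO libraries between 16.7 and 45.8, with KO replicate 1 farthest out. The 10 germ cell markers, among them Ddx4 and Dazl, summed to 3747 to 4222 CPM in HT and 3271 to 4249 CPM in KO, and each was detected in each library. Sertoli markers summed to 155 to 175 CPM in HT and 138 to 183 CPM in KO, and stromal markers to 341 to 399 CPM and 346 to 410 CPM. In sorted bulk cells, fewer cells of a type and less RNA per cell cannot be told apart.

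Tex15 checked the labels. It stood at 907, 979 and 988 CPM in HT replicates 1 to 3 and at 3.54, 4.02 and 3.56 CPM in KO replicates 1 to 3. Each KO library was thus far below each HT library, with a log2 fold change of -8.01 (SE 0.19, adjusted p = 3.44e-12).

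Because this window of germ cell life is one of new CG methylation, the promoters of a few genes the results turn on are shown before their values. They are 300-base windows, 250 bases before to 50 after a gene's start, on the strand of the gene, from RefSeq on GRCm38.p6, and CG dinucleotides are in capitals. Prom1 (2 starts) and Gpr179 had the smallest p of the raised genes, Pitpnc1 had the largest fold change among raised genes with a mean of at least 10 CPM in HT cells, Akr1c21 and Akr1c14 are raised members of 1 enzyme family, and Il5ra and Gtsf1 are the genes that fell most firmly beside Tex15.
Prom1 upstream start, chr5:44101687-44101986, reverse strand: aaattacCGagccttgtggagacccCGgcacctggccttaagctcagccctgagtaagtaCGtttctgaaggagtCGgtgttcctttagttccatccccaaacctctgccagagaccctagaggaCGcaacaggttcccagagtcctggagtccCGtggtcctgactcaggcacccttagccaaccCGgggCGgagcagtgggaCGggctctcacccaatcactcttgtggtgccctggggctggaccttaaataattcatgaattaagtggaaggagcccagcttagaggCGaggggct
Prom1 downstream start, chr5:44094719-44095018, reverse strand: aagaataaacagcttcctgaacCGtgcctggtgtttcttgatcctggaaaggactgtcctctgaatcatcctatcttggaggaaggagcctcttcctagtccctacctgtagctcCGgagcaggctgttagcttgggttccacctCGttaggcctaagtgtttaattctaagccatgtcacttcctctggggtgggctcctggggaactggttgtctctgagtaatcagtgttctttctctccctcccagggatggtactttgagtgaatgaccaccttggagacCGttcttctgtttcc
Gpr179, chr11:97352307-97352606, reverse strand: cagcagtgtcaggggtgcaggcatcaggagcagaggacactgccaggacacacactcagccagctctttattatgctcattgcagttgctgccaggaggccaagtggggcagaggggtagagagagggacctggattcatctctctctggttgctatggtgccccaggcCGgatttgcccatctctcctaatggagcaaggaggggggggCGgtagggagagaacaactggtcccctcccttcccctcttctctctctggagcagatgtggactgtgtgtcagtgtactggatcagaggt
Pitpnc1, chr11:107470671-107470970, reverse strand: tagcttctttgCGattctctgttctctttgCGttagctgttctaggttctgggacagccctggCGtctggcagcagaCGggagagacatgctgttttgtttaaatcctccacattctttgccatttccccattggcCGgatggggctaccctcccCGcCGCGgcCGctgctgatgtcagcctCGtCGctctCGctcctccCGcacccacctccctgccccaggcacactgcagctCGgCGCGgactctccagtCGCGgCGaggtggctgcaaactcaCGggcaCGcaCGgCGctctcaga
Akr1c21, chr13:4573825-4574124, forward strand: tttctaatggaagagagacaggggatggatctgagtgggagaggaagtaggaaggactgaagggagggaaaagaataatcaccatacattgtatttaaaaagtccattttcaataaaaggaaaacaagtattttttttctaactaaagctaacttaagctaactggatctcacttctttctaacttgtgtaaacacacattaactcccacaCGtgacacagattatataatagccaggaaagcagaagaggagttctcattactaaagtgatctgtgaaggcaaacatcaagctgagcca
Akr1c14, chr13:4059341-4059640, forward strand: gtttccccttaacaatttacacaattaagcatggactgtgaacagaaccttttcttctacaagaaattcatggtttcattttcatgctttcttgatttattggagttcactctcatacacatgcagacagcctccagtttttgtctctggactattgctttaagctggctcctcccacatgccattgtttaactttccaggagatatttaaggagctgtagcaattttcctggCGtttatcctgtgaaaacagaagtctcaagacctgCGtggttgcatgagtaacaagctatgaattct
Il5ra, chr6:106748988-106749287, reverse strand: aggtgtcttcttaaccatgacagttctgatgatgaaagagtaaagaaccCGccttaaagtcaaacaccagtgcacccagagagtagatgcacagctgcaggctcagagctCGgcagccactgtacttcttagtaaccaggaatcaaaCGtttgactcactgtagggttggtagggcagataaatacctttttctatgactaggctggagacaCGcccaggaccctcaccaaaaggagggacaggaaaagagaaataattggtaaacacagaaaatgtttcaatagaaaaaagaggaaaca
Gtsf1, chr15:103430378-103430677, reverse strand: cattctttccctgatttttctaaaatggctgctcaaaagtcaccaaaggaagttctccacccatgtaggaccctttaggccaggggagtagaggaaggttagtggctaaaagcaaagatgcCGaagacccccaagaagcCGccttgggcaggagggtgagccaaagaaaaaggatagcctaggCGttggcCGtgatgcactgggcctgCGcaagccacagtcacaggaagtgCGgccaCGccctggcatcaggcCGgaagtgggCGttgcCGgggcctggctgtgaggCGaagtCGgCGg
The windows of Akr1c21, Akr1c14 and Gpr179 held 1, 2 and 2 CG, that of Il5ra 4, the upstream and downstream windows of Prom1 10 and 4, that of Gtsf1 13 and that of Pitpnc1 23. Among the 32851 windows of the RefSeq set, 94.6% held at least 1 CG, with a median of 7. For the genes tested here the median was 19, taking the richest window of each of the 14278 that had one (78.5%), so of the genes shown Pitpnc1 alone lay above it. A check over all raised genes is void, since 76.9% of the 377 had a window, under the 80% needed. It could be made for genes with a mean of at least 10 CPM in HT. Of these, 86 of 102 raised genes had a window (84.3%), with a median of 15 CG, against 23 for the 8745 of 10927 tested genes with one (80.0%). This is a description of the windows, with no test, and the sets were not matched for level. Of the 102 raised genes 93 lay under 100 CPM in HT, and of the 10927 tested genes 8561 did. Methylation was not measured in these libraries.

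Young L1 and several groups of endogenous retroviruses were higher in KO cells, while no ancient L1 and no short element (SINE) was called. Of 1125 repeat names tested, 111 rose (9.87%) and 2 fell (0.178%). The p-values of names and families rest on a spread shared between rows of like abundance. With each row's own spread alone 51 rose, and in 1 fit together with the genes 96 did. Leaving out HT replicate 3, KO replicate 1 and KO replicate 3 in turn gave 63, 63 and 61, and without HT replicate 1 it was 270. These values are relative to gene counts. Relative to the repeat counts themselves the median over all names moved from 0.18 to -0.03, and 120 names rose and 27 fell. Beside the 9.87% of all names, most calls lay in a few groups.

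**Figure D1:**
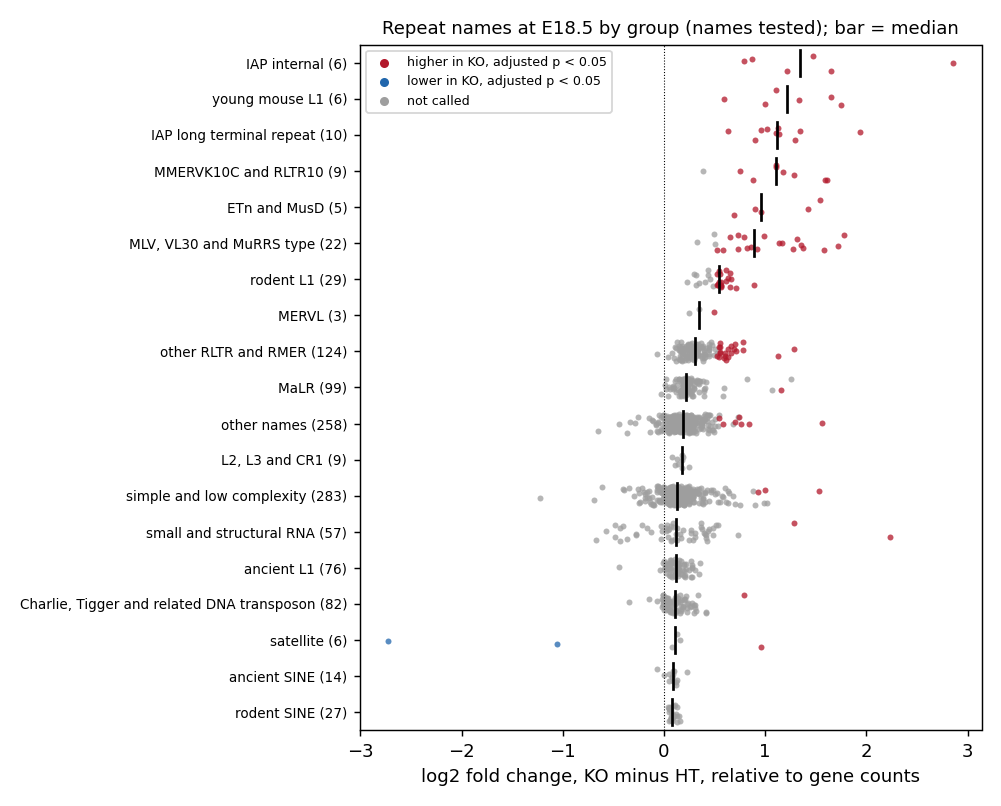
Log2 fold changes of 1125 repeat names in KO against HT cells at E18.5 (horizontal axis, relative to gene counts), sorted by group with the number of names tested; each point is a name, red and blue points passed, and black bars are group medians. Medians run from 1.34 for internal parts of intracisternal A particles to 0.08 for rodent SINEs, and GSAT_MM lies far to the left at -2.73.

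The young mouse L1 names, of the A, G, F and T classes, rose in 6 of 6 cases, with a median log2 fold change of 1.22 against 0.18 for all names. L1Md_A held 3652, 3230 and 3379 CPM in the HT libraries and 11595, 9079 and 11549 CPM in the KO libraries. The groups were far apart, at a log2 fold change of 1.65 (SE 0.19, adjusted p = 1.4e-15). L1Md_Gf, which is much rarer, went from 325 to 385 CPM in HT to 1038 to 1362 CPM in KO (1.75, SE 0.18). The most abundant class had the smallest fold change of the 6. L1Md_T was at 19785, 20380 and 21083 CPM in HT and 30430.0, 30329 and 31411 CPM in KO (0.59, SE 0.20, adjusted p = 0.0284), without overlap. Its call ended without HT replicate 3 or any 1 KO replicate (0.57 to 0.61), although its own replicate spread was small, with an adjusted p of 0.00843 from that spread alone. L1Md_F, L1Md_F2 and L1Md_F3 had log2 fold changes of 1.33, 1.11 and 1.00, and adjusted p-values of 0.068, 0.0703 and 0.0604 from their own spread. Together the young names rose from 37806 to 42165 CPM in HT to 72656 to 86052 CPM in KO, or from 1.81% to 1.95% of all table counts to 2.93% to 3.58%.

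Older L1 names changed less. Of 29 other rodent L1 names 19 passed, at a median of 0.54, led by L1VL1 (0.89, SE 0.18), which held 625 to 873 CPM in HT and 1181 to 1621 CPM in KO. These calls were weak: 0 of the 29 passed on their own spread, where 149 of the 1125 names had an unadjusted p under 0.05, 9 passed in the fit with the genes, and L1VL1 alone kept its call without any 1 library. L1_Mm (0.71) lost it without KO replicate 3 (0.61) and Lx2A1 (0.65) without KO replicate 1 or 3 (0.61 to 0.63). Of 76 ancient L1 names 0 passed in edgeR, DESeq2 or limma-voom, with a median of 0.12 and 1 unadjusted p under 0.05. L1M3e had a log2 fold change of 0.35 (SE 0.18, adjusted p = 0.259).

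Among endogenous retroviruses, intracisternal A particles (IAP), which mobilise in living mouse strains, rose in all 16 names, 6 of internal sequence and 10 of terminal repeats. IAPLTR4_I had the smallest p of all names. It stood at 24.4, 21.6 and 22.1 CPM in the HT libraries and at 167, 165 and 162 CPM in the KO libraries, a log2 fold change of 2.86 (SE 0.20, adjusted p = 7.72e-43). Replicates of each group were nearly equal, and the adjusted p from its own spread was 0.00105. IAPEz-int, the internal part of the commonest full-length IAP, went from 576 to 777 CPM to 1840.1 to 1959 CPM (1.47, SE 0.18), and IAPEY3-int from 502 to 608 CPM to 1626 to 1879 CPM (1.65, SE 0.18). IAPLTR1_Mm led the terminal repeats, at 68.5, 61.2 and 80.2 CPM in HT and 258, 266 and 279 CPM in KO (1.94, SE 0.18). The summed level of internal IAP names was 2.41 times as high in KO as in HT and that of IAP terminal repeats 2.23 times.

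Other groups of endogenous retroviruses followed. All 5 ETn and MusD names passed, led by ETnERV-int (182 to 212 CPM in HT, 547 to 606 CPM in KO; 1.54, SE 0.18). Of 9 MMERVK10C and RLTR10 names 8 passed. MMERVK10C-int held 1022, 996 and 1192 CPM in HT and 3174, 3149 and 3328 CPM in KO (1.59, SE 0.19, adjusted p = 1.4e-15), and RLTR10-int had a log2 fold change of 1.61 (SE 0.18). Of 22 names of the murine leukaemia virus, VL30 and MuRRS type 19 passed, with MuRRS-int (1.78, SE 0.18), RLTR4_MM-int (1.72, SE 0.18) and MMERGLN-int (1.58, SE 0.18) first. On summed levels these 3 groups were 2.10, 2.51 and 2.20 times as high in KO cells. In each of the 5 retroviral groups and in young L1, every KO library lay above every HT library in all names tested, which was so for 17.8% of all names.

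Of 124 other RLTR and RMER names, further long terminal repeats and internal parts, 22 passed (17.7%), above the 9.87% of all names, but 5 of the 22 kept the call without any 1 library, with RLTR45-int at 1.28 (SE 0.18) and RLTR45 at 1.13 (SE 0.18). MERVL-int, the element switched on in 2-cell embryos, had a log2 fold change of 0.49 (SE 0.18, adjusted p = 0.0491) and was called only while HT replicates 2 and 3 and KO replicates 1 and 3 were all kept (0.39 to 0.49 without one of them). Of 99 MaLR names 1 passed (1.01%), MLT1J2-int (1.16, SE 0.27). Of 27 rodent SINE names, short elements copied by the L1 machinery, 0 passed in edgeR, DESeq2 or limma-voom or had an unadjusted p under 0.05, and B4A was at 0.16 (SE 0.20). Rodent SINEs carried 12.8% to 15.8% of table counts in HT and 13.0% to 14.4% in KO.

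Satellite repeats were mixed. Of 6 names tested 2 fell and 1 rose, beside 0.178% and 9.87% of all names, with a median log2 fold change of 0.11. GSAT_MM, the major satellite of mouse pericentromeres, held 17907, 18854 and 18494 CPM in the HT libraries and 2908, 3653 and 1795 CPM in the KO libraries. Each KO library was lower by a wide margin (log2 fold change -2.73, SE 0.20, adjusted p = 1.05e-37, and 0.0298 from its own spread). SYNREP_MM fell by 1.05 (SE 0.24), while its groups overlapped, at 13.0 to 27.0 CPM in HT and 7.08 to 13.8 CPM in KO. MurSAT1 rose by 0.96 (SE 0.19), a call that rested on HT replicate 3 (0.74 without it). Neither of the latter passed on its own spread (adjusted p = 0.418 and 0.408). In the separate table of repeat families, whose alignments can count a read many times, Satellite was at 8063, 8447 and 8977 CPM in HT and 6015, 5609 and 6821 CPM in KO (-0.47, SE 0.15, adjusted p = 0.0199). This call was lost on leaving out HT replicate 3 or KO replicate 1 or 2 (-0.45 to -0.41) and on the family's own spread (adjusted p = 0.0814). In HT the whole family stood below GSAT_MM alone, at 8063 to 8977 CPM against 17907 to 18854 CPM. A fall as large as the -2.73 of GSAT_MM was not seen in the family. How reads were assigned in either count was not given, and the reason for these differences was not tested.

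Of 52 families tested 4 rose (7.69%) and 1, Satellite, fell (1.92%). L1 stood at 28437310, 26447538 and 29682090 CPM in HT and 100498155, 85005765 and 123005667 CPM in KO, so KO libraries differed by more among themselves than HT libraries did (1.87, SE 0.19). As a read can be counted many times here, this is not the change in L1 reads. On summed levels of names, young L1 was 1.93 times as high in KO as in HT. Other rodent L1 was 1.35 times and ancient L1 1.07 times as high. ERVK, which holds IAP, ETn and MMERVK10C, was at 1022713, 831397 and 1070340 CPM in HT and 2787422, 2947689 and 3077506 CPM in KO (1.59, SE 0.17). ERV1, the family of leukaemia virus type, was at 45112, 41690 and 49050 CPM against 160893, 141528 and 159995 CPM (1.77, SE 0.16). The groups of each family lay apart, and the adjusted p from its own spread was 0.00633 for L1, 0.00504 for ERVK and 0.00236 for ERV1. A family whose name is written NA rose as well (1.18, SE 0.16). The families of MERVL (ERVL, 0.29), of MaLR (0.27) and of SINEs (B4 0.09, B2 0.08, Alu 0.07) were not called.

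**Figure D2:**
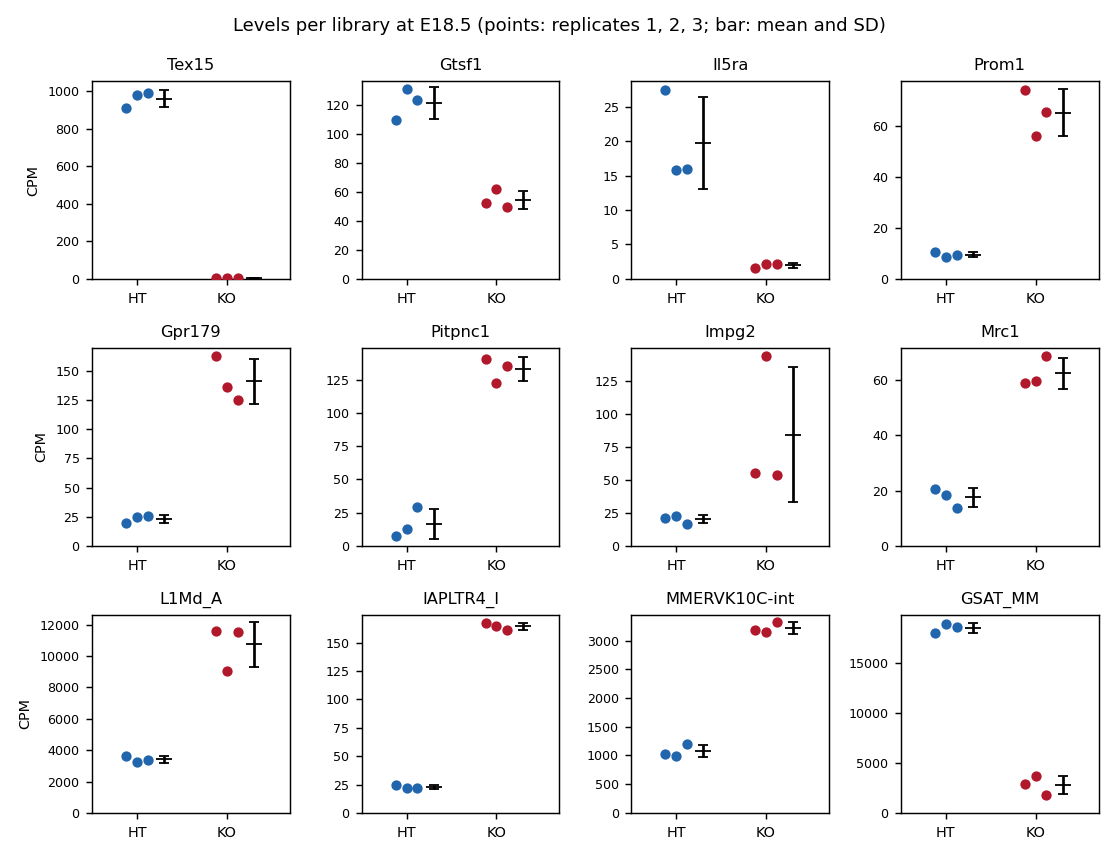
CPM of 12 genes and repeat names (vertical axes, linear from 0) in the 3 HT (blue) and 3 KO (red) libraries at E18.5, with mean and SD as black bars. HT and KO points do not overlap in any panel; Tex15, Gtsf1, Il5ra and GSAT_MM are lower in KO, and single libraries stand out for Il5ra (HT replicate 1), Pitpnc1 (HT replicate 3) and Impg2 (KO replicate 2).

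Genes changed mostly upward. Of 18199 genes tested 377 rose (2.07%) and 12 fell (0.0659%), and 1086 and 392 had an unadjusted p under 0.05. The 377 summed to 5327, 5208 and 5178 CPM in the HT libraries and 11578, 10665 and 11159 CPM in the KO libraries. In 376 of them every KO library lay above every HT library, which was so for 8.21% of all genes tested. The calls were made on these same libraries, so this separation is nearly built in and adds no support. The call held without any 1 of the 6 libraries in 172, and leaving out HT replicates 2 and 3 and KO replicate 3 in turn gave 194, 246 and 232. By the annotation 338 were protein coding, 20 transcribed pseudogenes and 18 long noncoding RNAs, and 51 carried the name of a predicted model.

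**Figure D3:**
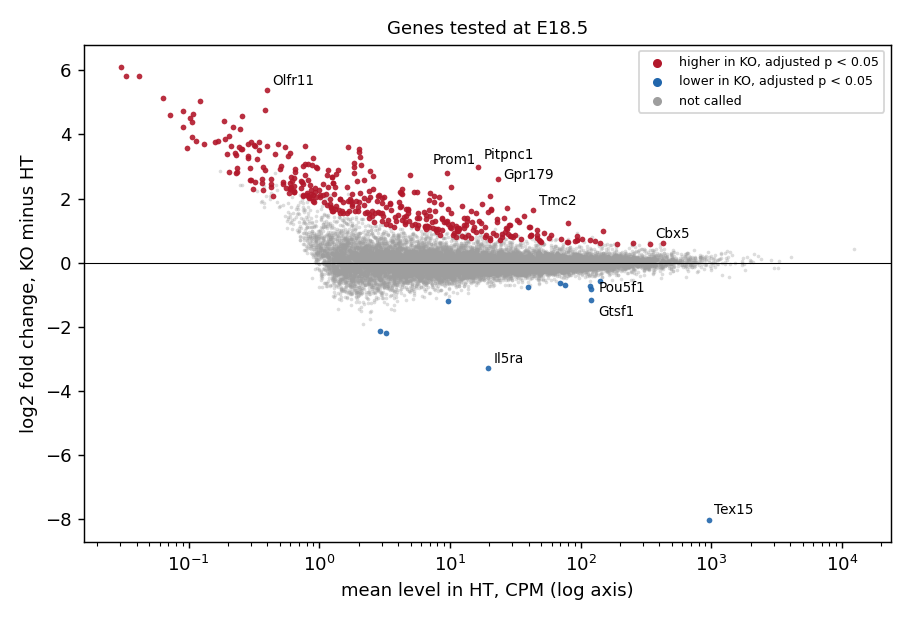
Log2 fold change of each gene tested (vertical axis) against its mean level in HT libraries (horizontal log axis, CPM). Red points, higher in KO, reach the largest fold changes at the left, where HT levels are under 1 CPM, while the 12 blue points lie at 2.89 CPM and above.

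Raised genes were mostly silent or weak in HT cells. Of 359 genes under a mean of 1 CPM in HT 114 rose, with a median log2 fold change of 2.95 and a median level of 3.34 CPM in KO. Such genes could enter the test only through their KO counts, so this count is no measure of how often silent genes rise. From 1 to 10 CPM 161 of 6913 rose (2.33%), from 10 to 100 CPM 93 of 8561 (1.09%) and from 100 CPM 9 of 2366 (0.38%), with median log2 fold changes of 1.74, 1.03 and 0.62. Among the 17062 genes with at least 10 counts in each HT library 228 rose (1.34%).

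The gene with the smallest p beside Tex15 was Prom1, which encodes the cell surface protein prominin-1. It held 10.4, 8.64 and 9.43 CPM in HT and 74.2, 56.1 and 65.6 CPM in KO (2.78, SE 0.18, adjusted p = 1.97e-06). Gpr179, an orphan receptor of retinal bipolar cells, held 19.5, 24.8 and 25.3 CPM in HT and 162, 136 and 125 CPM in KO (2.60, SE 0.17, adjusted p = 1.97e-06). For both, even the lowest KO library was more than any HT library by a wide margin. Impg2, a matrix protein around photoreceptors, held 21.1, 22.4 and 16.9 CPM in HT and 55.3, 143 and 53.9 CPM in KO (2.06, SE 0.32). The groups did not overlap, yet KO replicate 2 set the size, and without it the log2 fold change was 1.44.

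Among raised genes with a mean of at least 10 CPM in HT, Pitpnc1, a phosphatidylinositol transfer protein, changed most. It stood at 7.42, 12.8 and 29.3 CPM in HT and 140, 123 and 136 CPM in KO (2.997, SE 0.34, adjusted p = 0.00016). HT replicate 3 was the highest of its group, and without it the log2 fold change was 3.69. Tmc2, a subunit of the hair cell mechanotransduction channel, was at 39.1, 39.6 and 51.2 CPM in HT and 143, 122 and 142 CPM in KO (1.64, SE 0.16). Slc40a1, the iron exporter ferroportin, was at 18.5, 23.8 and 19.6 CPM in HT and 34.8, 85.7 and 78.3 CPM in KO (1.68, SE 0.27), with KO replicate 1 well below the other 2. Dntt, the template-free DNA polymerase of lymphocytes, rose by 1.65 (SE 0.21) and the signalling kinase Irak2 by 1.78 (SE 0.18). Others with small p-values were weaker in HT. The kinase Pak7, with a mean of 8.27 CPM in HT, rose by 2.04 (SE 0.18). Plac8l1 went from 1.13 to 2.09 CPM in HT to 19.9 to 21.5 CPM in KO (3.61, SE 0.26), and Gbp9, of the interferon-induced guanylate-binding proteins, from 1.76 to 1.98 CPM to 12.03 to 18.5 CPM (2.97, SE 0.27).

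**Figure D4:**
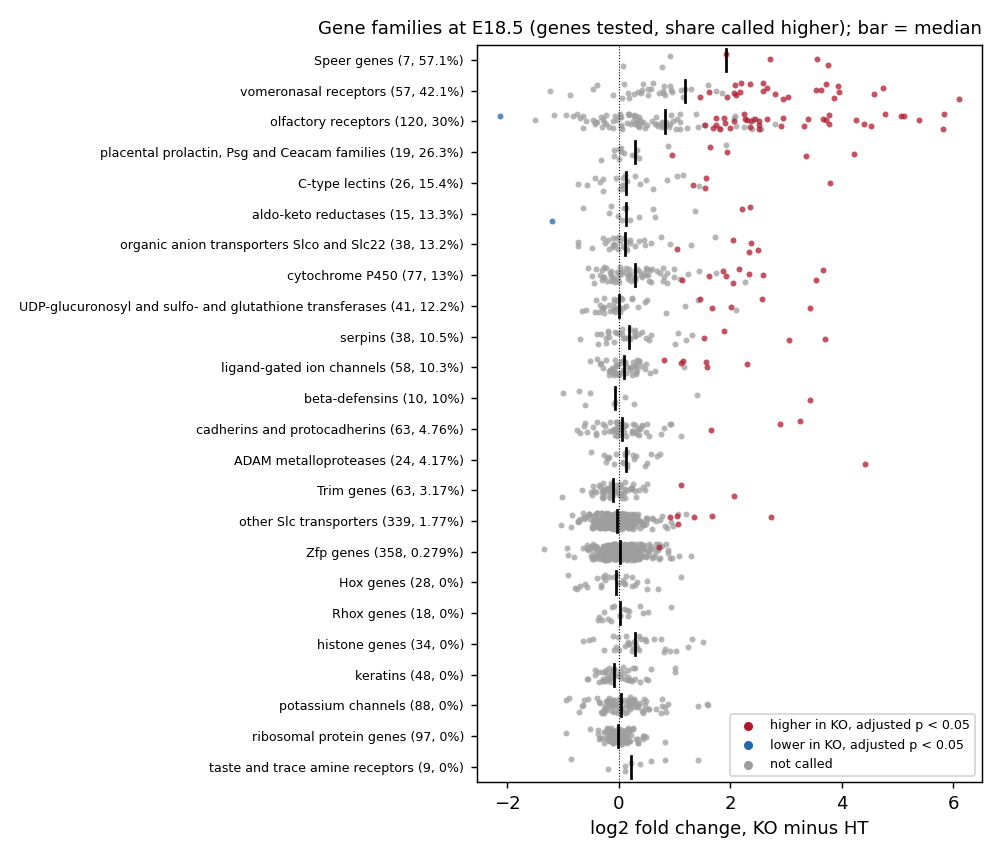
Log2 fold changes of the genes tested in 24 gene families (horizontal axis, KO against HT at E18.5), ordered by the share called higher, with the number tested and that share beside each name; red and blue points passed, and black bars are medians. This order places red points in the upper rows, from Speer genes (57.1%) and vomeronasal receptors (42.1%) down, beside 2.07% of all genes tested. The lowest 7 rows have none. Shares include genes that entered the test through KO counts. Of those with at least 10 counts in each HT library, 2 of 3 Speer and 3 of 20 vomeronasal genes rose.

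Chemosensory receptors, normally read out 1 at a time in sensory neurons, gave the largest fold changes. Of the 1125 olfactory receptor genes counted, 120 were tested, and 36 rose and 1 fell. Of 57 vomeronasal receptor genes tested, out of 340, 24 rose. Most entered the test through KO counts: of those with at least 10 counts in each HT library 4 of 45 and 3 of 20 rose, beside 1.34% of all such genes. Olfr11 held 0.126, 0.273 and 0.794 CPM in HT and 18.4, 15.9 and 18.97 CPM in KO (5.38, SE 0.38, adjusted p = 3.56e-06), and 6.31 without HT replicate 3. Olfr293 held 0.126, 0.728 and 0.298 CPM in HT and 15.1, 8.93 and 10.5 CPM in KO (4.77, SE 0.43), and 5.61 without HT replicate 2. Both were near the floor in every HT library and clearly expressed in every KO library. Vmn2r78 went from 1.13 to 2.88 CPM to 15.2 to 20.7 CPM (3.04, SE 0.30). Vmn1r204 had 1 count over the HT libraries, in replicate 2, and 85 over the KO libraries, a ratio of 94.4 (95% counting interval 16.5 to 3773). For Olfr418, Olfr114 and Olfr33 the counts were 1 and 71, 1 and 70, and 2 and 74, with ratios of 78.9 (13.7 to 3159), 77.8 (13.5 to 3115) and 41.1 (10.98 to 346), intervals that cover counting error only. The single HT counts of Olfr418 and Olfr114 were in replicates 1 and 3. Without the library holding the count, the fitted log2 fold changes, which then depend on the prior count, were 7.85 for Vmn1r204, 7.69 for Olfr418 and 7.60 for Olfr114, against 6.09, 5.82 and 5.81. Reads of near-identical copies may be split or shared between such genes by the authors' counting, so the copy of origin is uncertain here and in the other multigene families below.

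Enzymes and carriers of steroid, bile acid and drug metabolism, most of them liver genes, were raised in part. The counts below include genes that entered the test through KO counts, and the shares stand beside 2.07% of all genes tested, or 1.34% of those with at least 10 counts in each HT library. Of 77 cytochrome P450 genes tested 10 rose (13.0%), and 4 of the 62 with that many HT counts (6.45%). Cyp4a12b, a fatty acid hydroxylase, held 0.754, 2.18 and 3.08 CPM in HT and 19.9, 30.04 and 22.6 CPM in KO (3.54, SE 0.34, adjusted p = 4.54e-05). Cyp2c29 went from 3.47 to 4.82 CPM to 16.6 to 20.6 CPM (2.16, SE 0.23) and Cyp7b1, an oxysterol hydroxylase, from 2.39 to 3.36 CPM to 8.97 to 13.0 CPM (1.88, SE 0.27). In the aldo-keto reductases, which act on steroids and sugars, 2 of 15 rose (2 of 13 with the HT counts) and 1 fell. Akr1c21 held 8.42, 12.004 and 10.3 CPM in HT and 53.1, 51.7 and 54.1 CPM in KO (2.36, SE 0.18, adjusted p = 6.95e-06), with KO replicates almost equal, and Akr1c14 4.27 to 6.37 CPM against 22.1 to 26.5 CPM (2.21, SE 0.22). Of 41 glucuronosyl, sulfo and glutathione transferases 5 rose, but 2 of the 32 with the HT counts (6.25%). Of the 5, Ugt3a2 (3.43, SE 0.43) and the sulfotransferases Sult2a5 (2.57, SE 0.41) and Sult2a4 (1.68, SE 0.27) kept their calls without any 1 library. Of 38 organic anion transporters 5 rose, and 3 of the 31 with the HT counts (9.68%). Of the 5, Slco1a6 (2.04, SE 0.26) alone kept its call without any 1 library. Of 339 other Slc transporters 6 rose (1.77%), near the 2.07% of all genes, with the peptide carrier Slc15a2 (2.73, SE 0.26) first.

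Among families of neurons, ligand-gated ion channel subunits had calls above the share of all genes. Of 58 tested 6 rose (10.3%), all of them among the 56 with at least 10 counts in each HT library (10.7%, beside 1.34%). The GABA receptor subunit Gabrg3 held 2.64, 3.36 and 1.79 CPM in HT and 14.0, 11.3 and 13.4 CPM in KO (2.30, SE 0.28), and Gabra3 (1.57, SE 0.23) and Gabrr1 (1.16, SE 0.16) rose too. Each of these 3 kept its call without any 1 library. Of 88 potassium channel genes 0 passed in edgeR or limma-voom. DESeq2 called 1, and 9 stood at an unadjusted p under 0.05. Of 63 cadherins 3 rose, and 1 of the 55 with the HT counts (1.82%), a share near that of all genes. The 3 include Cdh19 (3.25, SE 0.45; 4.15 without HT replicate 2) and Cdh12 (1.66, SE 0.23) whose calls needed no single library. Of 19 genes of the placental prolactin, Psg and Ceacam families 5 rose, and 2 of the 13 with the HT counts. Prl8a6, of the prolactin family, had 3 counts over the HT libraries, all in replicate 2, and 56 over the KO libraries, a ratio of 20.7 (6.74 to 104). Of 38 serpins, protease inhibitors, 4 rose, and 1 of the 28 with the HT counts (3.57%), with Serpina3c at 11.8 to 18.5 CPM in HT and 37.9 to 51.2 CPM in KO (1.54, SE 0.20). Of 7 Speer genes, a rodent family expressed in testis, 4 rose (2 of 3 with the HT counts), with Speer4f1 at 2.01 to 2.91 CPM against 16.2 to 18.4 CPM (2.72, SE 0.24).

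Of 358 Zfp genes 1 rose (0.279%, beside 2.07% of all genes), Zfp329 (113 to 124 CPM in HT and 191 to 198 CPM in KO; 0.72, SE 0.13). Of 97 ribosomal protein, 48 keratin, 34 histone, 28 Hox and 18 Rhox genes 0 passed in edgeR, DESeq2 or limma-voom, counts too small to set apart from 2.07%. Unadjusted p-values under 0.05 numbered 1, 2, 6, 2 and 0 in these. The call of Zfp329 ended without HT replicate 2 (0.76) or KO replicate 3 (0.72).

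Some raised genes lay side by side. Tested genes were put in the order of the GRCm38 annotation, in which 99.7% of them matched by name. Of the 377 raised genes 101 (26.8%) had a raised gene as a direct neighbour among the genes tested, against 4.01% of all genes tested. Silent genes that were not raised are missing from this order, which places raised genes of a silent cluster next to each other. With all genes of the table in the order, tested or not, 75 of the 377 had a raised neighbour (19.9%, against 3.01% of all). Among genes with at least 10 counts in each HT library alone, 32 of 228 had one (14.0%, against 2.63%). In the order of tested genes the 101 formed 46 runs, of which 8 held 3 or more genes, and the longest was Olfr784, Olfr792, Olfr810 and Olfr811. Other runs joined Cyp2c53-ps, Cyp2c29 and Cyp2c38, and the calcium-activated chloride channel regulators Clca3b, Clca4b and Clca4a. In the latter run Clca3b held 25.6 to 28.5 CPM in HT and 83.7 to 103 CPM in KO (1.72, SE 0.16), Clca4b 0.546 to 1.01 CPM against 4.94 to 7.67 CPM (3.08, SE 0.38), and Clca4a 3.18 to 3.90 CPM against 6.92 to 8.62 CPM (1.16, SE 0.26). The call of Clca4a ended without KO replicate 3 or any 1 HT replicate (1.08 to 1.24), and that of Cyp2c38 (2.05, SE 0.49) without KO replicate 1 (1.40), KO replicate 3 or any 1 HT replicate (up to 2.22). In the olfactory run Olfr784 kept its call without any 1 library, and Olfr792, Olfr810 and Olfr811 did not, resting on HT replicates 1 and 2 and KO replicate 2, and the latter pair also on KO replicate 3 (1.58 to 2.32 over the 3 genes without one of these). Without HT replicate 3 the log2 fold change of Olfr811 was 3.04 in place of 2.24. Neighbours of 1 family can share sequence, and how reads were divided between copies was not given in the sources used here.

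Of the 12 genes that fell, 3 kept the call without any 1 library: Tex15, Il5ra and Gtsf1. Il5ra, the interleukin 5 receptor chain, held 27.4, 15.8 and 15.9 CPM in HT and 1.53, 2.23 and 2.18 CPM in KO (-3.29, SE 0.30, adjusted p = 3.78e-05). HT replicate 1 was the highest, and all KO libraries were far below the lowest HT library. Gtsf1, a zinc finger protein that PIWI proteins need for silencing, held 109, 131 and 123 CPM in HT and 52.4, 61.7 and 49.5 CPM in KO (-1.15, SE 0.15, adjusted p = 0.000554), again without overlap. It was the 1 of 25 piRNA pathway genes that passed. Tdrd1, a tudor protein of the same pathway, was at 1125 to 1242 CPM in HT and 1098 to 1489 CPM in KO (0.15, SE 0.14, adjusted p = 0.933).

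Pou5f1, which encodes the factor OCT4 after which the sorting reporter is named, held 110, 135 and 117 CPM in HT and 53.5, 88.8 and 64.9 CPM in KO (-0.81, SE 0.18, adjusted p = 0.0307). KO replicate 1 was the lowest, and the call rested on 4 libraries, HT replicates 2 and 3 and KO replicates 1 and 3 (-0.83 to -0.66 without one of them). Fbxo15, a gene of pluripotent cells, fell by 0.71 (SE 0.16) and lost its call without KO replicate 3 or any 1 HT replicate (-0.76 to -0.59). Esco2, which acetylates cohesin, held 117, 123 and 115 CPM in HT and 52.4, 83.2 and 77.4 CPM in KO (-0.74, SE 0.17), a call that stood without KO replicate 2 only (-0.80 to -0.56 without each other library). Idh1, isocitrate dehydrogenase of the cytosol, was at 62.7 to 77.3 CPM in HT and 44.1 to 46.8 CPM in KO (-0.64, SE 0.15), and Sspo, SCO-spondin, at 141 to 142 CPM against 92.7 to 97.1 CPM (-0.56, SE 0.13). Both had replicates that were close together, yet each lost its call without 5 of the 6 libraries, at -0.67 to -0.57 for Idh1 (without all but HT replicate 1) and -0.58 to -0.54 for Sspo (without all but KO replicate 1). The other 4 were weaker still. The call of Nkx2-9 (-2.21, SE 0.43) was lost on leaving out HT replicate 2 or 3 or KO replicate 3 (-2.28 to -1.99), that of Akr1b7 (-1.20, SE 0.26) without any 1 HT replicate or KO replicate 1 or 2 (-1.28 to -1.05), that of Zmat4 (-0.76, SE 0.17) on leaving out any 1 of the 4 libraries that Pou5f1 rested on (-0.78 to -0.65), and that of Olfr553 (-2.13, SE 0.49) without any 1 library (-2.46 to -1.77).

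Lists of germ cell development held from 0 to 2 called genes each. Beside 2.07% of all genes raised, lists of this size would hold few raised genes in any case, so 0 or 1 raised gene sets none of them apart. Of 17 genes of the DNA methylation machinery 0 passed in edgeR, DESeq2 or limma-voom or had an unadjusted p under 0.05. Dnmt3a, the main de novo methyltransferase here, was at 1278 to 1379 CPM in HT and 1351 to 1440 CPM in KO (0.10, SE 0.13). Of 26 genes of histone H3K9 methylation and heterochromatin 1 rose, Cbx5 (309 to 366 CPM in HT, 476 to 591 CPM in KO; 0.60, SE 0.15, adjusted p = 0.049), a call lost without any 1 library (0.49 to 0.65). Ehmt2, an H3K9 methyltransferase, was at -0.27 (SE 0.15). Of 28 spermatogonial genes 1 rose, the receptor Kit, at 76.4, 82.8 and 81.7 CPM in HT and 119, 132 and 127 CPM in KO (0.65, SE 0.14, adjusted p = 0.0201). The groups were well apart, but the call ended without any 1 HT replicate or KO replicate 2 or 3 (0.61 to 0.67). Of 26 pluripotency and fetal germ cell genes 2 fell, beside 0.0659% of all genes, the Pou5f1 and Fbxo15 described above, with a list median of -0.24 against -0.004 for all genes, and Dazl was at -0.25 (SE 0.14). Of 29 genes of meiotic prophase, 22 targets of p53, 25 imprinted genes and 23 germline genes known to depend on promoter methylation, 0 passed in edgeR, DESeq2 or limma-voom, with 2, 1, 3 and 1 at an unadjusted p under 0.05. Smc3, a cohesin subunit, held 1460, 1381 and 715 CPM in HT and 1249, 1501 and 1504 CPM in KO, with HT replicate 3 apart. Cenpf, of the mitotic kinetochore, held 946, 866 and 442 CPM in HT and 686, 870 and 995 CPM in KO, with the same library apart.

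Of 32 genes of interferon response and nucleic acid sensing 2 rose (6.25%), both among the 30 with at least 10 counts in each HT library (6.67%, beside 1.34%). Ifi44 held 7.79, 10.2 and 15.4 CPM in HT and 22.4, 24.9 and 26.7 CPM in KO (1.14, SE 0.23), and was not called once HT replicate 1 or 2 or KO replicate 3 was left out (0.95 to 1.08). Samd9l held 11.2, 9.82 and 8.83 CPM in HT and 14.4, 24.3 and 25.9 CPM in KO (1.12, SE 0.24), with KO replicate 1 nearest to HT, and was not called once HT replicate 2 or 3, or KO replicate 2 or 3, was left out (0.97 to 1.10). The list median was -0.12, with members from -0.58 to 1.14. Some interferon-induced genes outside the list were raised too and kept their calls without any 1 library. Among them were Gbp9 described above, Gbp8 (1.82, SE 0.28), Ifi203 (2.19, SE 0.31) and Mndal (2.54, SE 0.27), which were named after their values were seen. Gbp8 lies next to Gbp9 and Mndal next to Ifi203 among the genes tested, so they are not separate cases. How many other members of these families rose was not counted.

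Among markers of other cells, Mrc1, the mannose receptor of macrophages, rose from 20.6, 18.6 and 13.9 CPM to 59.0, 59.5 and 68.9 CPM (1.82, SE 0.18, adjusted p = 6.27e-05). The 18 macrophage and blood markers in the table summed to 54.9 to 62.9 CPM in HT and 93.8 to 120 CPM in KO, and to 34.3 to 44.4 CPM and 34.8 to 50.8 CPM without Mrc1. Of 10 of these markers tested 2 rose, Mrc1 and Adgre1, and 2 of the 9 with at least 10 counts in each HT library, beside 1.34%. In 3 of the 10 every KO library lay above every HT library, and in 0 below. These were Mrc1, Adgre1 and the uncalled Ptprc, at 2.89 to 3.27 CPM in HT and 4.13 to 4.94 CPM in KO. Some other members were low in each group. Csf1r was at 1.89 to 2.68 CPM in HT and 1.68 to 4.37 CPM in KO. Lyz2, C1qb and C1qc were under 1 CPM in each library, and Hba-a1 and Hbb-b1 were listed at 0. Adgre1 rose from 3.67 to 4.001 CPM to 7.31 to 12.3 CPM (1.43, SE 0.27), which did not pass when HT replicate 2 or 3 or KO replicate 3 was left out (1.28 to 1.46). The endothelial receptor Tek rose from 26.7 to 36.7 CPM to 46.8 to 63.2 CPM (0.87, SE 0.18) and lost its call without the same libraries (0.76 to 0.85), while the 12 endothelial markers summed to 351 to 433 CPM in HT and 366 to 404 CPM in KO. Of 14 Sertoli, 8 Leydig and 14 stromal markers tested 0 passed in edgeR, DESeq2 or limma-voom, with 0, 1 and 1 at an unadjusted p under 0.05. The part of other cells in these values was not tested.

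The same contrast at E16.5 and at postnatal day 2.5 (D2.5), each with its own 3 HT and 3 KO libraries, places the E18.5 values in time. In 1 fit of these 18 libraries, 335 of the 377 genes raised at E18.5 (88.9%) had a positive log2 fold change at E16.5, with a median of 0.81, against 49.7% of all genes. At D2.5 this held for 221 (58.6%, median 0.44), against 48.3% of all genes. Of 18815 genes tested, the KO effect at E18.5 differed from that at E16.5 in 0 genes (0.0%) by edgeR and by limma-voom, with 156 and 197 at an unadjusted p under 0.05, and from that at D2.5 in 10 genes (0.0531%). Of the genes raised at E18.5, 4 were among these 10. On the scale of this fit Gpr179 had a mean (n = 3) of 19.4 CPM (SD 2.66) in HT at E18.5 against 118 CPM (SD 17.1) in KO, and of 0.215 CPM (SD 0.237) against 77.7 CPM (SD 27.3) at D2.5, where HT cells had nearly lost it. Its effects differed by -5.72 (SE 0.61, adjusted p = 7.76e-05 by edgeR). Samd9l, an antiviral gene, had means of 8.31 CPM (SD 1.02) against 17.98 CPM (SD 5.09) at E18.5 and of 0.939 CPM (SD 0.598) against 119 CPM (SD 28.0) at D2.5, and its effects differed by -5.82 (SE 0.62, adjusted p = 7.76e-05 by edgeR). These calls stood without any 1 library, while the count of 10 ran from 4 (without KO replicate 3 at E18.5) to 30 (without KO replicate 2 at D2.5). It was 6 when HT replicate 2 or KO replicate 1 or 2 at E18.5 was left out, 16 without HT replicate 1 at E16.5, and 25, 24 and 28 when HT replicates 1 and 3 and KO replicate 3 of D2.5 were left out in turn. The effects on Prom1 were 1.89 before (E16.5), 2.78 at E18.5 and -0.77 after birth, but the difference between the latter pair (3.56, SE 0.87) did not pass (adjusted p = 0.145 by edgeR).

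**Figure D5:**
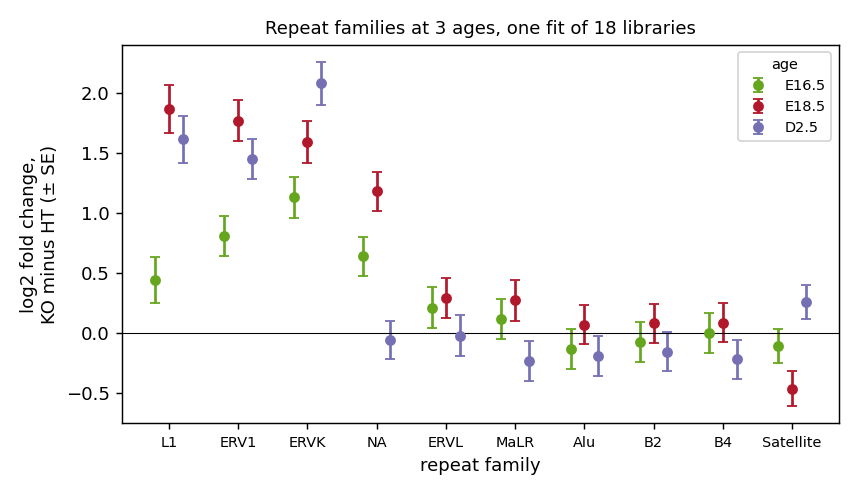
Log2 fold changes of 10 repeat families in KO against HT cells (vertical axis, bars are SE) by age, from 1 fit of 18 libraries. L1 and ERV1 are higher at E18.5 than at E16.5, NA is raised at E18.5 and near 0 at D2.5, and the 3 SINE families (B4, B2, Alu) stay near 0.

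Among families (3.85% called for each pair of ages), L1 was raised by 1.87 (SE 0.20) at E18.5 and 0.44 (SE 0.19) at E16.5, a difference of 1.43 (SE 0.27, adjusted p = 0.000128 by edgeR). ERV1 was raised by 1.77 (SE 0.17) and 0.81 (SE 0.17), a difference of 0.96 (SE 0.23, adjusted p = 0.00304 by edgeR). ERVK was raised by 1.60 (SE 0.18) at E18.5 and 1.13 (SE 0.17) at E16.5, and this difference of 0.46 (SE 0.24) did not pass (adjusted p = 0.793 by edgeR). Against D2.5 the effects on L1, ERV1 and ERVK differed by 0.25, 0.32 and -0.49, with adjusted p-values of 0.46, 0.382 and 0.271 from edgeR.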

How the data were processed

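Total RNA of flow-sorted germ cells was amplified and sequenced, per the labels' protocols. The submitters' processing notes name STAR, Bowtie, featureCounts and edgeR and the build mm9. Their roles, versions, strand settings and the handling of reads with many alignments were not given in those sources. The authors deposited raw counts: 1 table of genes and repeat names, and 1 of repeat families, in which alignments of a read are counted repeatedly.

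Genes were kept by filterByExpr (minimum count 10, minimum total 15) and repeats with 10 or more counts in 3 libraries, then scaled by TMM over genes and fitted with edgeR 4.0.16 (R 4.3.3), checked on simulated counts. Repeats used gene library sizes. Alternatives used DESeq2 1.42.0, limma 3.58.1 (voom), other scalings, filters and spreads, a replicate block, and each library left out.

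Named were Tex15, all lower genes, the 10 higher genes with the largest fold, smallest p, or largest fold from 10 CPM among those kept without any 1 library, up to 4 called and 2 uncalled genes per list, 3 repeat names per group and the main families. Members of runs of neighbours, genes that differed between ages, the remaining young L1 names and single markers were added after their values were seen. Members and lists were chosen with earlier results of these data known. Predicted models are counted, not named.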

Additional observations from a re-analysis of the deposited data

Results flagged for a closer look

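The KO effect at E18.5 differed from that at another age, by a test of the difference in 1 edgeR fit of 18 libraries, for 4 repeat families and 10 genes. Against E16.5, the family L1 differed by 1.43 and ERV1 by 0.96 on the log2 scale, and neither call ended without any 1 library.

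Against D2.5, the family NA differed by 1.24, being raised at E18.5 (1.18, SE 0.16) and not at D2.5 (-0.06, SE 0.16). The family Satellite differed by -0.72 (adjusted p = 0.0215 by edgeR), with log2 fold changes of -0.46 at E18.5 and 0.26 at D2.5. Its call ended without HT replicate 3 at D2.5 or HT replicate 3, KO replicate 1 or KO replicate 2 at E18.5 (-0.72 to -0.67).

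Genes with a smaller effect at E18.5 than at D2.5 were Gpr179 (difference -5.72), Samd9l (-5.82), C6 (-4.15), Spag16 (-2.66), Pamr1 (-6.92), Mrm1 (-7.94) and Trmt61a (-3.08). C6, a complement component, was raised at both ages, by 1.86 at E18.5 and 6.01 at D2.5, and its difference did not pass without KO replicate 3 at E18.5 (-4.18). Spag16, Pamr1, Mrm1 and Trmt61a were not called at E18.5. Spag16, of the sperm tail, was at 8.97 CPM in HT and 13.1 CPM in KO at E18.5 and at 11.2 and 102.8 CPM at D2.5. The call of Pamr1 ended without any 1 KO replicate at E18.5 (-6.98 to -6.93). Mrm1 was at 0.0 CPM in the HT libraries at D2.5, and its call ended without any 1 library of E18.5 and without HT replicate 2 at D2.5 or HT replicate 2 or any 1 KO replicate at E16.5 (-8.10 to -7.85).

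Camk2b differed in the other direction by 2.64, with log2 fold changes of 1.46 at E18.5 and -1.18 at D2.5. This call ended without any 1 library other than HT replicate 3 or KO replicate 3 at D2.5 and HT replicate 1 or 3 at E16.5 (2.22 to 2.68). Hps1, not called at E18.5, differed by 3.95 and lost its call once HT replicate 1 or 2 or KO replicate 3 at E18.5 was left out (3.79 to 3.92). Tex15 itself differed by -1.52. Its mean in KO libraries was 3.10 CPM at E18.5 and 21.4 CPM at D2.5, and the call ended without HT replicate 2 or any 1 KO replicate at E18.5 (-1.60 to -1.50).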

How the results depend on the processing

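Without 1 library the count of raised genes ran from 194 to 382 and of lowered genes from 3 to 21, raised repeat names from 61 to 270 and lowered names from 2 to 4, and lowered families from 0 to 1. Lowered genes numbered 20 with DESeq2. On each row's own spread 51 names rose and 1 fell, and 0 families fell. Lowered names numbered 1 with DESeq2 and 27 relative to repeat totals. The differences from D2.5 numbered 4 to 30 for genes and 1 to 5 for families without 1 library.

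The labels do not say whether replicate numbers pair the libraries, and the values did not settle it. Deviations of same-numbered HT and KO libraries correlated at 0.21, 0.13 and 0.09. Those of differently numbered libraries correlated at -0.22 to 0.10, and HT replicate 3 correlated best with KO replicate 2 (0.10). On the second principal component of the genes (24.6% of the variance) replicate 1 lay at 23.7 in HT and 33.6 in KO. Replicates 2 and 3 lay at 4.74 and -3.78 in HT and at -33.9 and -24.3 in KO. With the replicate number as a block 502 genes rose and 29 fell, 205 names rose and 5 fell, and 7 families differed from D2.5.

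None of the 377 genes or 111 names changed sign in any setting that kept them. They were called on these same libraries, so this is nearly built in and adds no support. Some uncalled values changed sign. Without HT replicate 3, Smc3 was at -0.01 (0.21 to 0.43 without the others) and Cenpf at -0.09 (up to 0.38). Mrm1 was at -0.01 without KO replicate 1 (up to 0.23). Relative to repeat totals B4A was at -0.05, MIR3 at -0.10, and the families Alu, B2 and B4 at -0.04, -0.04 and -0.03. Without 1 library these families ran from -0.03 to 0.17, -0.04 to 0.13 and -0.02 to 0.19. Where no value shows it, the cause was not tested. With 3 libraries a group and 3 counts worth 0.273 to 0.377 CPM, silent genes had little power in HT.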
